A study of Mus musculus with 6 samples.

Results

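Genes of mitosis and the G2/M phase were followed in mouse bone marrow cells that had been transduced with MN1 or with an empty vector. The set holds 44 genes, listed by name for their known roles in cell division. It was chosen with earlier results of these data known. In all, 43 of the 44 were measured, among 19938 genes tested. Cyclin B1 (Ccnb1) was the exception, because no probe set carried its symbol in the annotation used. MN1 is a transcriptional coregulator whose overexpression is known in acute myeloid leukaemia. In the MN1 group, marrow cells carried the retroviral vector MSCV-MN1-IRES/YFP, in which the viral promoter drives MN1 and a linked fluorescent reporter. In the empty vector group, cells carried the vector without MN1. The reporter is named YFP in the description of the design and GFP in the sample labels. Reporter-positive cells of both groups were sorted 72 h after transduction and their RNA was hybridised to Affymetrix whole-transcript arrays. There were 3 arrays per group, described as coming from 3 independent experiments. The sources used here do not give the strain, age or sex of the donor mice, any pooling of animals, or the culture conditions between transduction and sorting. The sorted cells are a bulk population, so a lower value can come from fewer dividing cells or from less transcript per cell, and these cannot be told apart.

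Entry into mitosis is driven by Cdk1 bound to a B-type cyclin, helped by the Polo-like and Aurora kinases. The spindle assembly checkpoint holds the anaphase-promoting complex inactive until every kinetochore is attached, after which securin and the cyclins are degraded and the sister chromatids separate. The transcripts of these proteins accumulate together late in the cell cycle, so their level in a bulk sample is widely used as a measure of proliferation, and in marrow it is high in dividing progenitors and lost as granulocytes mature. Much of this timing comes from promoter elements near the transcription start: the cell cycle genes homology region (CHR), bound by the MuvB complexes with B-Myb (Mybl2) and FoxM1, and CCAAT boxes, bound by NF-Y.

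The promoters of 4 genes are shown. They had the largest differences between MN1 and empty vector among genes of the set with a CHR-type match upstream. Such a match is TTTGAA or TTCGAA on either strand, in the 250 bases before the start. CCAAT was not a criterion, and all 4 held it too. Each is the 250 bases before an annotated start, 5′ to 3′ on the strand of the gene, from RefSeq on GRCm38.p6. Capitals mark matches to TTTGAA or its reverse complement TTCAAA, to TTCGAA, and to CCAAT or its reverse complement ATTGG.
Ect2 (chr3:27153855-27154104, minus strand): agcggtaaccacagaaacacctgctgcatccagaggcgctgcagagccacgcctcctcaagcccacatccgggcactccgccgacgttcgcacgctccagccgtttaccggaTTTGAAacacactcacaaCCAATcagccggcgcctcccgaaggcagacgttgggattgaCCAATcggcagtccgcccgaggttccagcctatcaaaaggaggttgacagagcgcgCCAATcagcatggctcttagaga
Ccnb2 (chr9:70421555-70421804, minus strand): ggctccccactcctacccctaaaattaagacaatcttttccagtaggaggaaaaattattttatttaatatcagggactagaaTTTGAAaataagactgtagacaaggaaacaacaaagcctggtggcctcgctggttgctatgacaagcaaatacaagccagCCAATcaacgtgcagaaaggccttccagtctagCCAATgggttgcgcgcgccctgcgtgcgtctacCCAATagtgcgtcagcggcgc
Mki67 (chr7:135716380-135716629, minus strand): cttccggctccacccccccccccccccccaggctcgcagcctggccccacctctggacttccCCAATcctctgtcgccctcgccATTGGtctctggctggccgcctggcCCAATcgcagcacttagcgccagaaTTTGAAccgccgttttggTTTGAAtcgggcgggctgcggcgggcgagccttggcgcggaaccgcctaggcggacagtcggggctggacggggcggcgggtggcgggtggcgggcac
Top2a (chr11:99024190-99024439, minus strand): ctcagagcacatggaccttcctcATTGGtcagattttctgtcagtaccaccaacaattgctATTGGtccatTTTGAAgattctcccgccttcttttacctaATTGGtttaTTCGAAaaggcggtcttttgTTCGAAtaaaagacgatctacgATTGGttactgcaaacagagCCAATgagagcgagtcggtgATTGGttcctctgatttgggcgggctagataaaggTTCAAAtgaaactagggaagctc

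Counting from these letters, Ect2 and Ccnb2 each had 1 CHR-type match in this window, Mki67 had 2 and Top2a had 4. The CCAAT matches numbered 3 in Ect2, in Ccnb2 and in Mki67, and 6 in Top2a. None of these matches is shown to be a bound site.

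For those of the 10 genes with the largest differences, and of Mki67, Top2a and Cdk1, that had a CHR-type match close to the start, the 30 bases around one such match are shown for comparison, with the match in capitals.
Ect2 (chr3:27153822-27153851, minus strand): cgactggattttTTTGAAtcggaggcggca
Kif23 (chr9:61946780-61946809, minus strand): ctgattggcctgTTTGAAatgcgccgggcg
Plk1 (chr7:122159453-122159482, plus strand): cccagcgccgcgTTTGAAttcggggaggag
Ccnb2 (chr9:70421533-70421562, minus strand): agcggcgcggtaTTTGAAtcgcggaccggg
Racgap1 (chr15:99651634-99651663, minus strand): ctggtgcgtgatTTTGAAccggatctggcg
Aurka (chr2:172370521-172370550, minus strand): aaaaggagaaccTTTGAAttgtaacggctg
Mki67 (chr7:135716460-135716489, minus strand): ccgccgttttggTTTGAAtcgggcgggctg
Top2a (chr11:99024195-99024224, minus strand): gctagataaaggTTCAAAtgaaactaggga
Cdk1 (chr10:69352910-69352939, minus strand): taccgcggcgagTTTGAAactgctggcact

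These 9 stretches were chosen for holding a match, so its presence in them is no result. In 8 it was TTTGAA on the strand of the gene, and in Top2a the reverse complement. Promoter windows were found for 36 of the 43 measured genes, in 39 windows, since some genes have several annotated starts. In the stretch from 100 bases before to 50 bases after the start, 31 of 39 windows (79.5%) held a CHR-type match, against 6.84% of 19177 windows of all genes tested. That stretch was chosen after the matches were seen. In the 250 bases before the start the shares were 38.5% and 14.8%. CCAAT in either orientation was found in 71.8% of the windows of the mitosis genes in those 250 bases, against 34.5% over all genes tested. The 28 genes with a CHR-type match near the start and the 8 without (Birc5, Cenpe, Kif2c, Mad2l1, Nek2, Nuf2, Nusap1 and Pttg1) had median differences between MN1 and empty vector of -0.30 and -0.24 on the log2 scale. No window was matched for Dlgap5, Ccna2, Kif20a, Cdca2, Tpx2, Aurkb and Incenp.

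**Figure D1:**
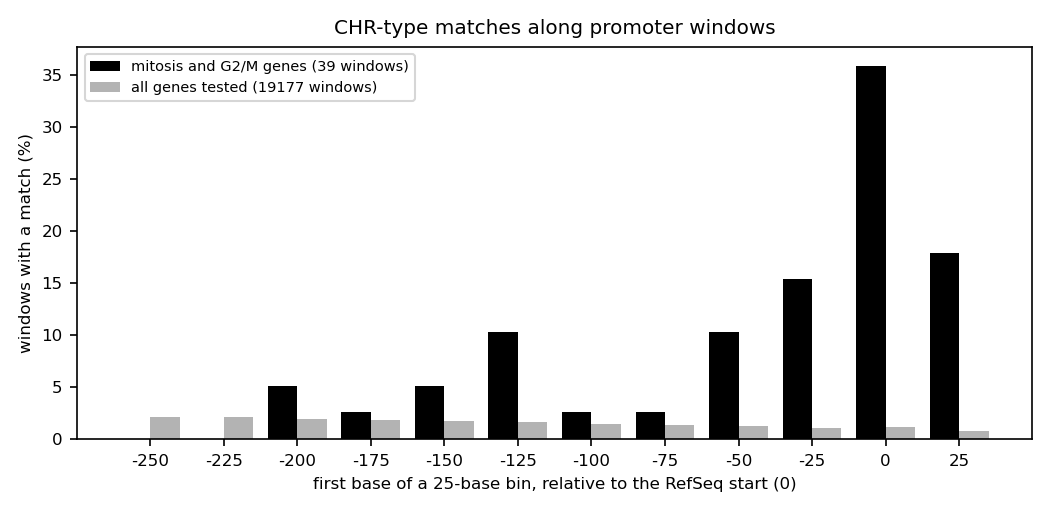
Percent of promoter windows with a CHR-type match in each 25-base bin, by the first base of the bin relative to the RefSeq start, for the 39 windows of the mitosis and G2/M genes (black) and the 19177 windows of all genes tested (grey). The tallest black bar, 35.9%, is the bin that begins at the start, where the grey bar is 1.17%.

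The values are log2 expression values per probe set made by the authors with RMA, and a difference is the MN1 mean minus the empty vector mean, with the moderated standard error (SE) of limma. Array medians over all probe sets lay between 5.82 and 6.01. The transduced gene Mn1 was read at 6.47, 6.62 and 6.08 on MN1 replicates 1, 2 and 3 and at 5.34, 5.41 and 4.80 on empty vector replicates 1, 2 and 3, a difference of 1.20 ± 0.21 (SE, n = 3 per group, adjusted p = 0.584 by limma with Benjamini-Hochberg adjustment over all genes), or 1.16 without MN1 replicate 1. All MN1 arrays therefore stood above all empty vector arrays for Mn1, as the labels have it. Markers carried by most blood cells, such as Ptprc, had mean levels of 11.57 to 11.75 over 8 genes on the 6 arrays. Because the origin of each sample is known only from the statement of 3 experiments, p-values measure the spread between these arrays.

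Before the comparison, 1 array has to be named. MN1 replicate 1 had the lowest value of all 6 arrays for 40 of the 43 mitosis genes (93.0%), while it was the lowest array for 25.2% of all genes tested. The exceptions were Mki67 and Cenpa, lowest on MN1 replicate 3, and Anln, lowest on empty vector replicate 3. At the other end, empty vector replicate 2 was the highest array for 27 genes (62.8%), against 25.2% of all genes. Averaged over the 43 genes, the level was 7.85, 8.82 and 8.65 on MN1 replicates 1, 2 and 3, and 8.86, 9.02 and 8.46 on empty vector replicates 1, 2 and 3. Averages of MN1 replicates 2 and 3 thus lay inside the empty vector range, and that of MN1 replicate 1 lay below it. Averages over all genes ran from 6.80 to 6.81, which RMA makes nearly equal by its construction. The differences of genes below, and the medians of lists, are therefore given with and without MN1 replicate 1.

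**Figure D2:**
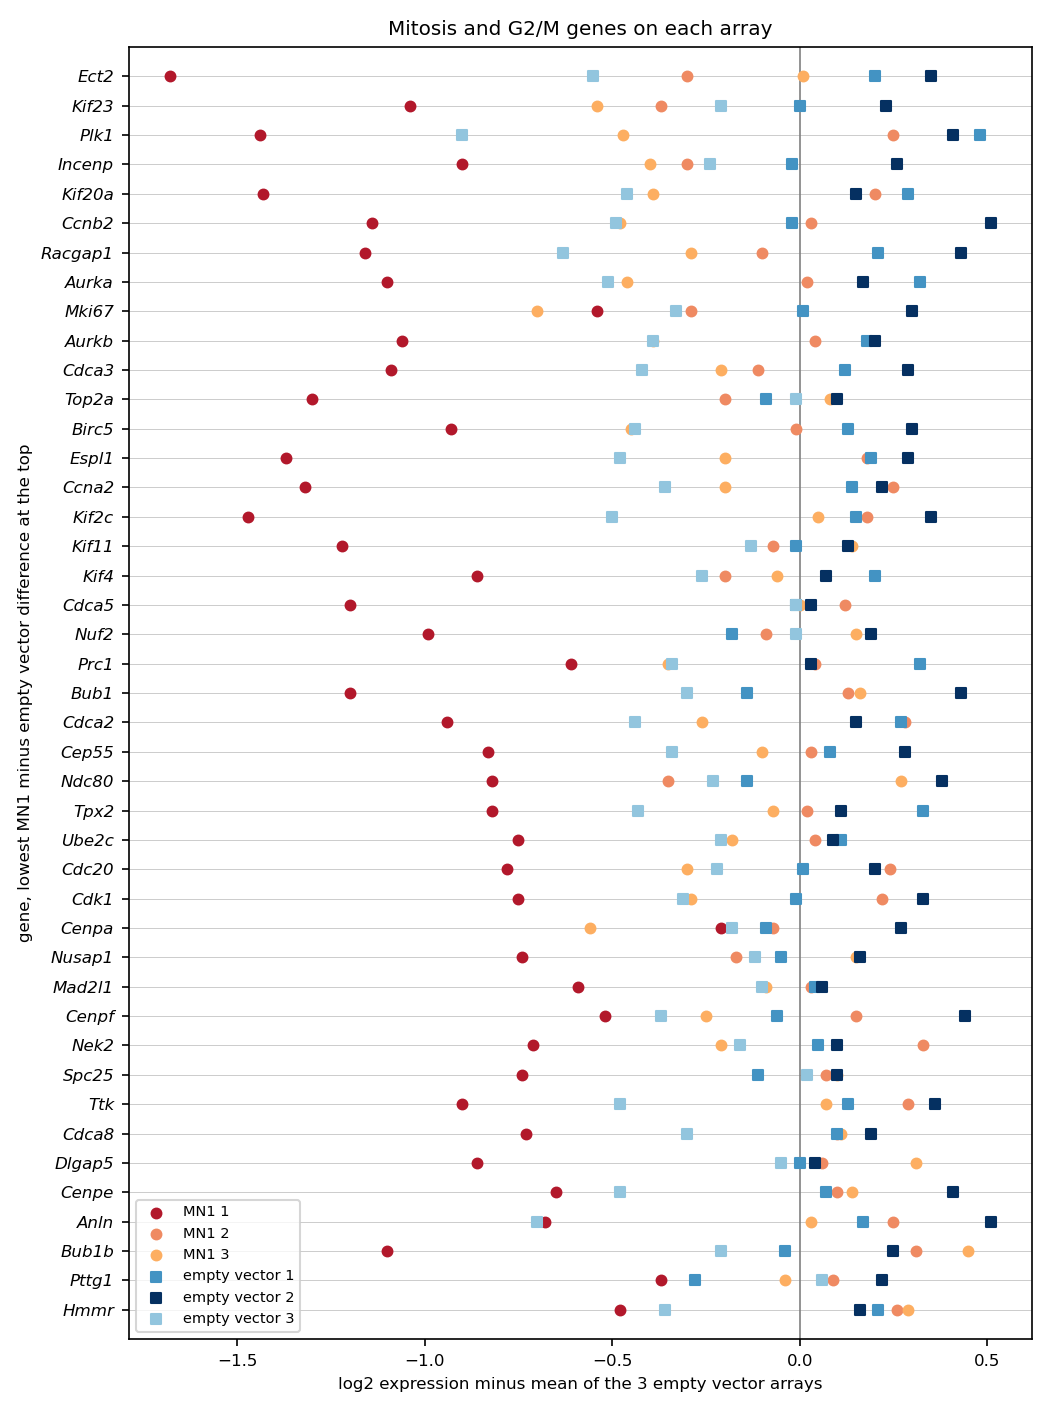
Level of each of the 43 mitosis and G2/M genes on each of the 6 arrays, with genes from the lowest difference at the top and, on the horizontal axis, the log2 value minus the gene's mean over the 3 empty vector arrays (circles MN1, squares empty vector). MN1 replicate 1 is the lowest array for 40 genes, and empty vector replicate 2 is the highest for 27.

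Of the 43 genes, 42 had a lower mean in MN1 cells than in empty vector cells (97.7%), against 56.7% of all genes tested. Their median difference was -0.30, against -0.03 over all genes, and the range ran from -0.65 for Ect2 to 0.02 for Hmmr. None passed the test: 0 of 43 genes, and 0.0% of all genes, had an adjusted p under 0.05 by limma with Benjamini-Hochberg adjustment, and the smallest adjusted p was 0.584 among the mitosis genes and 0.579 among all genes. At an unadjusted p under 0.05, 3 genes were lower (Kif23, Incenp and Mki67), which is 6.98% of the set against 4.23% of all genes. All MN1 arrays lay below all empty vector arrays for 2 genes, Kif23 and Incenp, which is 4.65% against 10.3% of all genes. The count of genes with separated groups was thus not above the background, although nearly all means differed in the same direction. Without MN1 replicate 1, 26 of 43 genes (60.5%) were lower, against 54.1% of all genes, and the median difference was -0.03. Only Kif23 was then lower at an unadjusted p under 0.05 by limma, against 2.38% of all genes.

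Arrays of one group differed more for these genes than for others. The median within-group standard deviation (SD) was 0.45, against 0.17 over all genes. The highest and lowest MN1 arrays stood 1.02 apart at the median, and the empty vector arrays 0.61, while both figures were 0.30 over all genes. The difference between the group means was smaller than the empty vector range in 36 of 43 genes (83.7%), near the 79.2% of all genes, and smaller than the MN1 range in 42 (97.7%), against 79.5% of all genes. MN1 replicate 1 lay below the mean of the other MN1 arrays by a median of 0.83, a difference of -0.83 that ran from -1.58 for Kif2c to 0.10 for Cenpa, and over all genes it was -0.03. Empty vector replicate 3 was the lowest empty vector array for 38 of the 43 (88.4%), against 37.6% of all genes.

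**Figure D3:**
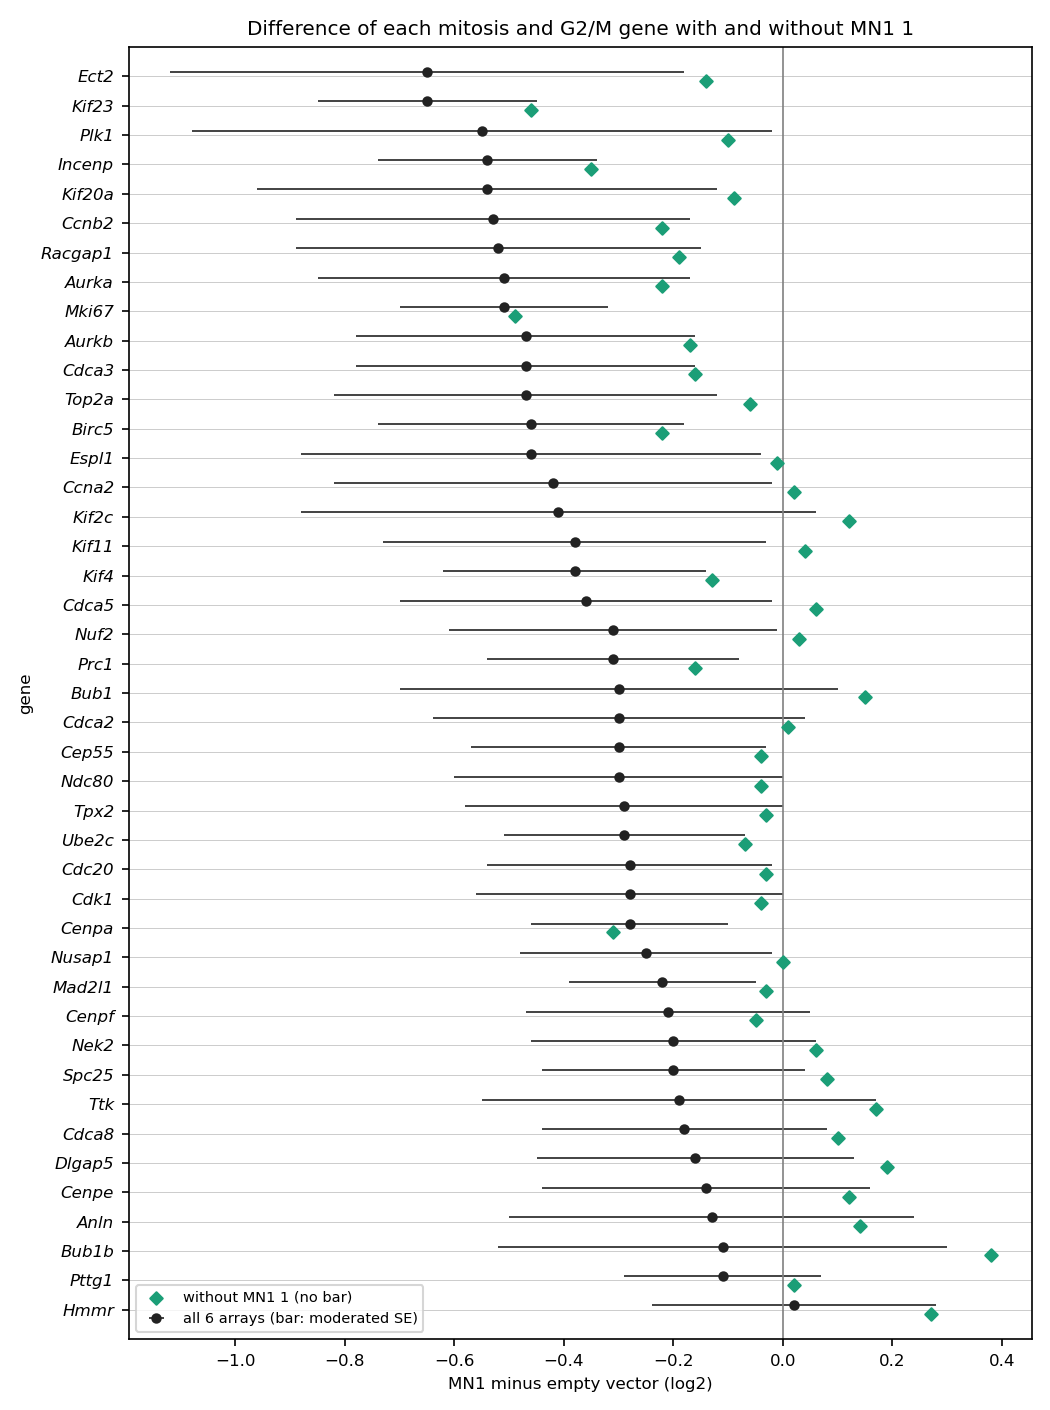
Difference between MN1 and empty vector on the log2 scale for each of the 43 genes, on all 6 arrays (points, with the moderated SE as bars) and without MN1 replicate 1 (diamonds, no bar). With all arrays the differences run from -0.65 to 0.02, and without MN1 replicate 1 their median is -0.03.

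Mki67 and Top2a are the genes most often read as marks of proliferating cells: Ki-67 coats mitotic chromosomes, and topoisomerase II alpha untangles sister DNA. Mki67 was read at 9.97, 10.22 and 9.81 on MN1 replicates 1, 2 and 3 and at 10.52, 10.81 and 10.18 on empty vector replicates 1, 2 and 3. The groups overlapped only between MN1 replicate 2 and empty vector replicate 3. The difference was -0.51 ± 0.19 (unadjusted p = 0.035, adjusted p = 0.584, limma) and was nearly as large without MN1 replicate 1, at -0.49. Top2a was read at 9.03, 10.13 and 10.41 in MN1 cells and at 10.24, 10.43 and 10.32 in empty vector cells, in the same order of replicates. Only MN1 replicate 1 stood far from the rest, and the difference of -0.47 ± 0.35 (adjusted p = 0.664, limma) was -0.06 without it. A second Top2a probe set, not kept, was dim (means 3.12 and 3.22) and differed by -0.11.

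Among the cyclins and Cdk1, which form the kinase that starts mitosis, Ccnb2 was read at 8.883, 10.048 and 9.544 in MN1 cells and at 9.996, 10.528 and 9.531 in empty vector cells. Its groups overlapped, and its difference was -0.53 ± 0.36 (adjusted p = 0.651, limma), or -0.22 without MN1 replicate 1. Cdk1 itself was read at 9.05, 10.02 and 9.51 in MN1 cells and at 9.79, 10.13 and 9.49 in empty vector cells. Apart from MN1 replicate 1 its values were shared by both groups: the difference was -0.28 ± 0.28 (adjusted p = 0.740, limma), and -0.04 without that array. Ccna2, the A-type cyclin that acts from S phase to early mitosis, differed by -0.42 ± 0.40, and by 0.02 without MN1 replicate 1.

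The mitotic kinases followed the same arrays. Plk1, the Polo-like kinase of spindle assembly and mitotic exit, was read at 8.34, 10.03 and 9.31 in MN1 cells and at 10.26, 10.19 and 8.88 in empty vector cells. Low values thus occurred in both groups, on MN1 replicate 1 and empty vector replicate 3, and the difference was -0.55 ± 0.53 (adjusted p = 0.732, limma), or -0.10 without MN1 replicate 1. Aurka, the Aurora kinase of the spindle poles, was read at 7.878, 8.995 and 8.517 in MN1 cells and at 9.305, 9.153 and 8.471 in empty vector cells. The groups overlapped here too, with a difference of -0.51 ± 0.34 (adjusted p = 0.641, limma), or -0.22 without MN1 replicate 1. Nek2, a centrosome kinase, differed by -0.20 ± 0.26, and by 0.06 without that array.

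The chromosomal passenger complex joins the kinase Aurkb to the scaffold Incenp and the targeting subunits Birc5 (survivin) and Cdca8 (borealin), and corrects faulty spindle attachments. Incenp was read at 8.50, 9.10 and 9.0 in MN1 cells and at 9.38, 9.66 and 9.16 in empty vector cells. Every MN1 array was below every empty vector array; the nearest were MN1 replicate 2 and empty vector replicate 3. The difference was -0.54 ± 0.20 (unadjusted p = 0.036, adjusted p = 0.584, limma), and -0.35 without MN1 replicate 1. Aurkb differed by -0.47 ± 0.31, Birc5 by -0.46 ± 0.28 and Cdca8 by -0.18 ± 0.26. Without MN1 replicate 1, Aurkb and Birc5 stayed lower, at -0.17 and -0.22, and Cdca8 was at 0.10.

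The genes of the midzone and cytokinesis, which build the central spindle and cut the daughter cells apart, held 4 of the 10 largest differences. Kif23, the kinesin of the centralspindlin complex, was read at 7.80, 8.47 and 8.30 in MN1 cells and at 8.84, 9.07 and 8.63 in empty vector cells. Its groups did not overlap, and its difference of -0.65 ± 0.20, or 1.57-fold lower, had the smallest p of the set (unadjusted p = 0.0169, adjusted p = 0.584, limma). It was -0.46 when MN1 replicate 1 was left out. Racgap1, the partner of Kif23 in centralspindlin, was read at 8.51, 9.57 and 9.38 in MN1 cells and at 9.88, 10.10 and 9.04 in empty vector cells. Its groups overlapped through the low empty vector replicate 3, and its difference was -0.52 ± 0.37 (adjusted p = 0.662, limma), or -0.19 without MN1 replicate 1.

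Ect2, the exchange factor that centralspindlin recruits to activate RhoA at the cleavage furrow, was read at 7.08, 8.46 and 8.77 in MN1 cells and at 8.96, 9.11 and 8.21 in empty vector cells. MN1 replicate 1 was far below every other array, and the difference of -0.65 ± 0.47 (adjusted p = 0.662, limma) was -0.14 without it. Kif20a, the kinesin that carries the passenger complex to the midzone, was read at 7.53, 9.16 and 8.57 in MN1 cells and at 9.25, 9.11 and 8.50 in empty vector cells. MN1 replicate 1 again stood alone, with a difference of -0.54 ± 0.42 (adjusted p = 0.681, limma) and -0.09 without it. Prc1, which bundles midzone microtubules, differed by -0.31 ± 0.23, Cep55, of the abscission site, by -0.30 ± 0.27, and Anln, the furrow protein anillin, by -0.13 ± 0.37. Leaving out MN1 replicate 1 put them at -0.16, -0.04 and 0.14. Over the 7 genes of this role the median difference was -0.52, or -0.14 without MN1 replicate 1, when 6 of the 7 were still lower.

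In the spindle assembly checkpoint the differences were smaller and turned sign with 1 array. Bub1 differed by -0.30 ± 0.40, Mad2l1 by -0.22 ± 0.17, Ttk (the kinase Mps1) by -0.19 ± 0.36 and Bub1b (BubR1) by -0.11 ± 0.41. Without MN1 replicate 1 these were 0.15, -0.03, 0.17 and 0.38, so that 3 of the 4 were then higher in MN1 cells. Their medians were -0.20 with the array and 0.16 without it.

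The genes grouped under anaphase and sister chromatid cohesion, with Cdca3 among them, had a median difference of -0.33 over 6 genes. Some of them promote the release of the chromatids and others oppose it. Cdca3, which takes part in the degradation of the mitotic inhibitor Wee1, differed by -0.47 ± 0.31, Espl1 (separase) by -0.46 ± 0.42 and Cdca5 (sororin, which protects cohesin) by -0.36 ± 0.34. Ube2c, the ubiquitin-conjugating enzyme of the anaphase-promoting complex, differed by -0.29 ± 0.22, its activator Cdc20 by -0.28 ± 0.26 and securin (Pttg1) by -0.11 ± 0.18. In the order named, the 6 were at -0.16, -0.01, 0.06, -0.07, -0.03 and 0.02 without MN1 replicate 1, with a median of -0.02 and 4 of the 6 lower.

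The kinetochore genes had a median difference of -0.24 over 6 genes, or -0.01 without MN1 replicate 1. Nuf2, Ndc80 and Spc25, of the microtubule-binding Ndc80 complex, differed by -0.31 ± 0.30, -0.30 ± 0.30 and -0.20 ± 0.24. Cenpf and the kinesin Cenpe of the outer kinetochore differed by -0.21 ± 0.26 and -0.14 ± 0.30. In the same order these 5 were at 0.03, -0.04, 0.08, -0.05 and 0.12 without MN1 replicate 1, so that 3 of them were then higher. Cenpa, the histone H3 variant of the centromere, was the exception among the arrays: it was read at 9.33, 9.47 and 8.98 in MN1 cells and at 9.45, 9.81 and 9.36 in empty vector cells. Its low array was MN1 replicate 3, and its difference of -0.28 ± 0.18 was -0.31 without MN1 replicate 1.

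Among the spindle motors, the depolymerase Kif2c differed by -0.41 ± 0.47, the bipolar kinesin Kif11 by -0.38 ± 0.35 and the chromokinesin Kif4 by -0.38 ± 0.24. These were 0.12, 0.04 and -0.13 without MN1 replicate 1. Of the proteins that nucleate or bundle spindle microtubules, Tpx2 differed by -0.29 ± 0.29, Nusap1 by -0.25 ± 0.23, Dlgap5 by -0.16 ± 0.29 and Hmmr by 0.02 ± 0.26. Hmmr was the only gene of the set with a higher mean in MN1 cells. With MN1 replicate 1 left out, Tpx2 was at -0.03, Nusap1 at 0.00, Dlgap5 at 0.19 and Hmmr at 0.27. Cdca2, which targets a phosphatase to chromatin at mitotic exit, differed by -0.30 ± 0.34, and by 0.01 without that array.

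Further genes of mitosis outside the set had a smaller median difference, although the largest single one, that of Psrc1, exceeded any in the set. Of 104 such genes listed, 101 were measured, and 77 were lower and 24 higher in MN1 cells, with a median of -0.16. When MN1 replicate 1 was left out, the median was 0.04 and 38 of the 101 were lower. The 3 with the largest differences were Psrc1, a spindle microtubule protein, at 0.82 ± 0.47, Fbxo5 (Emi1, an inhibitor of the anaphase-promoting complex) at -0.58 ± 0.37, and Troap, a microtubule-associated protein, at -0.57 ± 0.43. These were 0.63, -0.15 and -0.24 when MN1 replicate 1 was left out. None of the 101 passed the adjusted threshold, and 1, the Cdk1-inhibiting kinase Pkmyt1 (-0.54 ± 0.21, or -0.32 without MN1 replicate 1), had an unadjusted p under 0.05 by limma. Of all genes, 4.23% were lower at that unadjusted threshold. All MN1 arrays lay below all empty vector arrays for 2 of the 101, Pkmyt1 and Cks1b (1.98%, against 10.3% of all genes), and above them for 3, Anapc4, Anapc7 and Anapc10 (2.97%, against 5.71% of all genes). Neither share was above that of all genes, and these genes were named after their values were seen.

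Genes of DNA replication, active in the preceding S phase, showed the low array as well. Of 49 measured, 45 were lower in MN1 cells, with a median of -0.28, and MN1 replicate 1 was the lowest array for 48. Without it the median was 0.00 and 24 were lower. The average level over the 49 genes was 8.06, 8.99 and 8.97 on MN1 replicates 1, 2 and 3 and 8.81, 9.06 and 8.97 on the empty vector replicates. Empty vector replicate 3, low among the empty vector arrays for the mitosis genes, was not low for the replication genes. The largest differences were those of Rrm2, a subunit of ribonucleotide reductase (-0.66 ± 0.41), Uhrf1, which directs maintenance DNA methylation (-0.65 ± 0.45), and Gins1, of the replicative helicase (-0.56 ± 0.40). Leaving out that array put them at -0.18, -0.10 and -0.11. None of the 49 had an unadjusted p under 0.05 by limma, while 4.23% of all genes were lower at that threshold.

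The transcription factors and regulators of the cell cycle differed less as a group, with a median of -0.10 over 22 genes, of which 14 were lower, and a median of -0.01 without MN1 replicate 1. Largest were E2f2, an activating E2F factor (-0.76 ± 0.29, unadjusted p = 0.0362, adjusted p = 0.584, limma), Mybl2 (-0.65 ± 0.42) and Tfdp2, a partner of E2F factors (0.57 ± 0.29). Without MN1 replicate 1 these were -0.59, -0.21 and 0.59. Foxm1, named after its value was seen because it acts at the CHR, differed by -0.45 ± 0.25, and by -0.36 without that array.

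Of 8 lists of blood lineage markers, 1 ranked the arrays exactly as the mitosis genes did, and the others departed from that order to varying degrees. The 11 measured primary granule genes, expressed in promyelocytes, all had lower means in MN1 cells, with a median of -0.97, or -0.46 without MN1 replicate 1. Their average levels were 8.28 to 9.68 on the MN1 arrays and 8.57 to 10.78 on the empty vector arrays. They put the 6 arrays in the same order as the mitosis genes, from MN1 replicate 1 through empty vector replicate 3, MN1 replicates 3 and 2 and empty vector replicate 1 to empty vector replicate 2. Late granulocyte genes were lower in 15 of 17 (median -0.97, or -0.80 without MN1 replicate 1), with averages of 9.07 to 9.36 on MN1 and 8.71 to 11.39 on empty vector arrays. Monocyte and macrophage genes were higher in 12 of 15 (median 0.80, or 0.56), with averages of 9.63 to 10.23 and 8.93 to 9.62. Megakaryocyte genes were higher in 9 of 9 (median 0.97, or 0.44), with averages of 8.93 to 10.97 and 8.19 to 9.68. The averages of the monocyte and the megakaryocyte genes were both highest on MN1 replicate 1.

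Of the other lists, the erythroid and the T and NK averages were also lowest on MN1 replicate 1. Those of the stem and progenitor and of the B lineage genes were lowest on empty vector replicate 2. The monocyte and the megakaryocyte averages were lowest on that array too. Stem and progenitor genes were higher in 9 of 11 (median 0.91, or 0.89 without MN1 replicate 1), with averages of 8.68 to 9.33 on MN1 and 8.02 to 8.52 on empty vector arrays, highest on MN1 replicate 2. For 5 of the 11, every MN1 array lay above every empty vector array, against 5.71% of all genes. Erythroid genes were lower in 12 of 16 (median -0.30, or -0.23), with averages of 6.68 to 7.01 and 6.99 to 7.29. All MN1 arrays lay below all empty vector arrays for 7 of the 16, against 10.3% of all genes. B lineage genes were higher in 9 of 14 (median 0.39, or 0.10), with averages of 5.93 to 6.88 and 5.56 to 6.96, and T and NK genes were lower in 9 of 12 (median -0.28, or -0.23), with averages of 5.22 to 5.50 and 5.55 to 5.76. The averages of both these lists were highest on empty vector replicate 3. The part of these lineages in the differences of the mitosis genes was not tested.

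The level of Y-linked genes also differed between the arrays. Over Eif2s3y, Kdm5d and Uty the average was 7.11, 6.12 and 7.57 on MN1 replicates 1, 2 and 3 and 5.78, 3.78 and 7.04 on empty vector replicates 1, 2 and 3. The array with the highest average for the mitosis genes, empty vector replicate 2, had the lowest Y-linked average. This average was added to the fit as an alternative chosen after seeing the data. The median difference of the 43 mitosis genes was then -0.11, against -0.01 over all genes, and 30 of the 43 were lower. The share of all genes lower in that fit was not counted. The labels give no sex, and the part of the donors' sex was not tested.

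**Figure D4:**
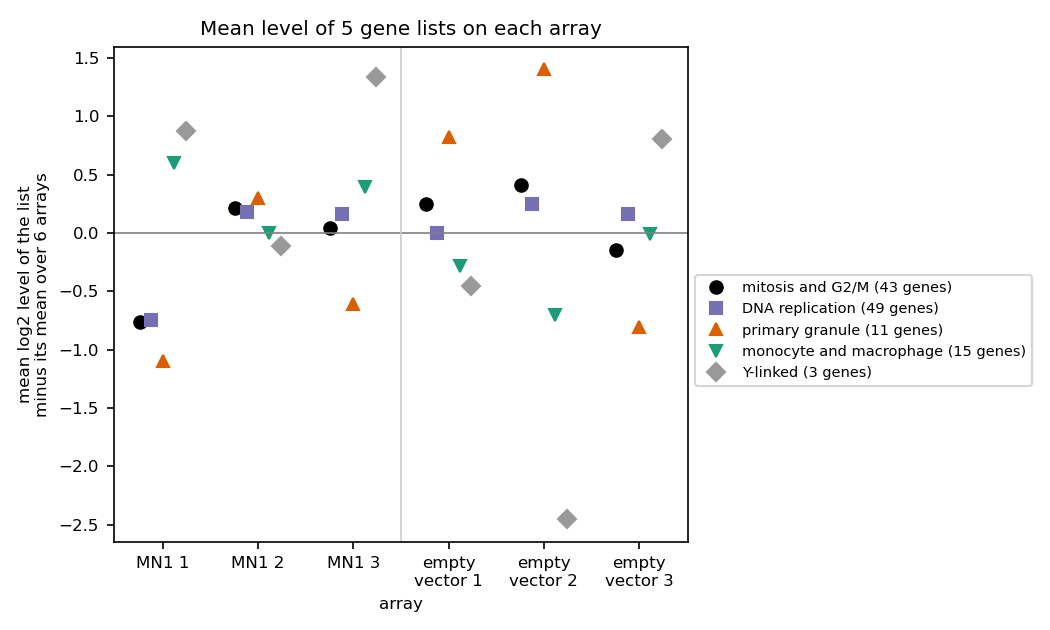
Average log2 level of 5 gene lists on each of the 6 arrays, drawn as the value minus the list's mean over the arrays. The mitosis, replication and primary granule lists are all lowest on MN1 replicate 1, where the monocyte and macrophage list is highest.

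By Pearson's r over the 6 arrays, the genes outside the set most like its average were Dna2 (0.999), Klrg2 (0.997), Zbtb12 (0.997), Sgo2a (0.995) and Klhdc7a (0.993). Dna2 is a nuclease and helicase of DNA replication and repair, and Sgo2a protects centromeric cohesin. These values describe 6 arrays that share 1 low array, were picked as the highest among all genes, and carry no test.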

How the data were processed

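Expression was measured on 6 one-colour arrays, 3 per group, with groups and replicate numbers from the sample titles. The values are log2 expression values per probe set as the authors deposited them, which per the submitters' processing notes were made with RMA; its software and version: not given in the sources used here. RMA compresses dim values, and no detection call was used. Labelling started from 200 ng of total RNA per the labels' protocols.

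Of 35557 probe sets, 21789 were annotated with a single gene symbol (platform annotation of 2016); the probe set with the highest mean was kept for each gene, which left 19938 genes. No filter was applied. MN1 was compared with empty vector by limma 3.58.1 (R 4.3.3; lmFit, eBayes, two-sided, 4 residual and 2.43 prior degrees of freedom), with p-values adjusted by Benjamini-Hochberg across the 19938 genes, threshold 0.05, without a replicate block. The fit was run on simulated data with noise drawn independently for each gene and planted differences far larger than those of the mitosis genes. That run does not bear on differences as small as these, nor on spread that genes share through an array. The number of arrays limits the precision.

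Members and lists were chosen with earlier results of these data known. All measured members are given; values per array are given for the 10 with the largest difference, those with separated groups, and Mki67, Top2a and Cdk1; Cenpa was added after its values were seen. From each further list the 3 largest differences are named. The alternatives were the replicate block, median centring, quantile normalization, the dimmest 40% of probe sets left out, averaged probe sets, array weights, an intensity trend with robust prior, leaving out each array and, added after seeing the data, a Y-linked covariate. Promoter letters were counted in RefSeq windows on GRCm38.p6, matched by symbol.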

Additional observations from a re-analysis of the deposited data

How the results depend on the processing

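No gene was called under any alternative, with 0 calls in each. The replicate block cannot change a difference, because each replicate number has 1 array in each group. The median of -0.30 and the 42 lower mitosis genes were therefore fixed in advance under it. It can change the SE and p. With the block, the smallest adjusted p by limma was 0.5 among the mitosis genes and 0.458 among all genes. Same-numbered arrays of the 2 groups correlated in their deviations from the group mean at 0.13, 0.075 and 0.324. Arrays of unlike number correlated at -0.498 to 0.437. Deviations from a mean of 3 arrays depend on one another, so these values cannot decide whether equal numbers mark the same experiment. With each array left out in turn, the median ran from -0.52 without MN1 replicate 2 to -0.03 without MN1 replicate 1. The number lower ran from 26 to 43 of 43, against 54.1% to 58.0% of all genes. Those lower at an unadjusted p under 0.05 by limma numbered 0 to 6, against 2.0% to 5.2% of all genes. Those with separated groups numbered 2 to 16, against 13.1% to 20.0% of all genes (16 without empty vector replicate 3, where the share was 19.4%). The median of the other mitosis genes ran from -0.27 to 0.04 and that of the replication genes from -0.44 to 0.00. Single genes turned sign in these fits, with ranges of -0.76 to 0.02 for Ccna2, -0.46 to 0.06 for Nek2, -0.53 to 0.15 for Bub1, -0.39 to 0.38 for Bub1b, -0.43 to 0.17 for Ttk, -0.32 to 0.10 for Cdca8, -0.25 to 0.02 for Pttg1, -0.60 to 0.06 for Cdca5, -0.38 to 0.12 for Cenpe, -0.54 to 0.03 for Nuf2, -0.34 to 0.08 for Spc25, -0.64 to 0.04 for Kif11, -0.71 to 0.12 for Kif2c, -0.40 to 0.19 for Dlgap5, -0.48 to 0.14 for Anln, -0.59 to 0.01 for Cdca2, -0.16 to 0.27 for Hmmr and -0.40 to 0.01 for Cenpf. With the Y-linked covariate, 0 mitosis genes were lower at an unadjusted p under 0.05 by limma. The share of all genes at that threshold was not counted in this fit, so the 0 is no result about the mitosis genes alone. The smallest adjusted p by limma was then 0.998 both among the mitosis genes and among all genes. The difference turned to above 0 for Cdk1 (0.06), Plk1 (0.04), Nek2 (0.01), Bub1 (0.01), Bub1b (0.09), Ttk (0.17), Cdca8 (0.02), Pttg1 (0.01), Cenpe (0.19), Cenpf (0.16) and Anln (0.34). Hmmr, above 0 in the main fit as well, was at 0.21, and Cdca2 was at 0.00. With array weights Bub1b was at 0.01. With quantile normalization Hmmr was at -0.08, 43 were lower and the median was -0.41. The causes were not tested. With 3 arrays per group and a median SE of 0.30, differences of the size seen here could not be told from the spread between arrays.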
